A study of Mus musculus with 30 samples.

Results

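The gluconeogenesis genes described here are 8 genes, *Pck1*, *G6pc*, *Fbp1*, *Pcx*, *Slc37a4*, *Ppargc1a*, *Gcgr* and *Foxo1*, taken by symbol from a table of 55450 genes measured in mouse liver. All 8 were found once each and all 8 had enough counts to be tested in every experiment. The 30 libraries hold liver mRNA of male mice on HFCFD, a diet rich in fat, cholesterol and fructose that induces steatohepatitis, and come from 3 experiments of 5 Cebpa fl/fl and 5 hepatocyte *Cebpa* knockout livers. *Cebpa* encodes CCAAT/enhancer binding protein α, a transcription factor of differentiated hepatocytes. The comparisons ask how the liver transcriptome differs between the genotypes before and after fibrosis has progressed.

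Within HFCFD2W, livers of Cebpa ΔHep mice, in which Cre is driven by the albumin promoter and needs no inducer, were compared with those of Cebpa fl/fl mice without Cre after 2 weeks of HFCFD. Within HFCFD8W+T10D, Cebpa ΔHep,ERT2 mice, in which the albumin-driven Cre acts once tamoxifen is given, and Cebpa fl/fl mice without Cre had 8 weeks of HFCFD and 10 days of tamoxifen. Within HFCFD12W+T10W, the same 2 genotypes had 12 weeks of HFCFD and then 10 weeks of HFCFD with tamoxifen. The control mice carried the tamoxifen label too, and all mice carried floxed *Cebpa* and were backcrossed to C57BL/6N. The age at sampling and whether the mice were fed or fasted are not given in the sources used here, and many of these genes are known to follow feeding. The paper describes the loss of *Cebpa* as specific to hepatocytes, and *Cebpa* in the other cells of each liver was not measured here. The diet time, the tamoxifen and the experiment changed together between experiments, and between HFCFD2W and the other 2 the Cre line did too, so these cannot be told apart.

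Gluconeogenesis is the making of glucose from lactate, amino acids and glycerol, and the liver is its main site in fasting. Pyruvate carboxylase (*Pcx*) makes oxaloacetate in the mitochondrion, cytosolic phosphoenolpyruvate carboxykinase (*Pck1*) turns it into phosphoenolpyruvate, fructose-1,6-bisphosphatase (*Fbp1*) reverses the phosphofructokinase step, and the glucose-6-phosphate transporter (*Slc37a4*) carries glucose-6-phosphate into the endoplasmic reticulum, where the catalytic subunit of glucose-6-phosphatase (*G6pc*) releases glucose. Glucagon acts through its receptor (*Gcgr*) and cAMP to raise the coactivator PGC-1α (*Ppargc1a*), which works with FOXO1 (*Foxo1*), a transcription factor that insulin signalling keeps out of the nucleus. C/EBP proteins are known to bind promoters of this pathway, those of *Pck1* and *G6pc* among them.

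On GRCm38, as annotated by GENCODE M21, *Pck1* lies on the plus strand at chr2:173153048-173159273 and *G6pc* on the plus strand at chr11:101367561-101377903. *Fbp1* lies on the minus strand at chr13:62864753-62888282, *Pcx* on the plus strand at chr19:4510472-4621752 and *Slc37a4* on the plus strand at chr9:44396852-44402968. *Ppargc1a* lies on the minus strand at chr5:51454250-51567726, *Gcgr* on the plus strand at chr11:120530699-120538986 and *Foxo1* on the plus strand at chr3:52268336-52353221. All 8 are protein-coding genes on 7 chromosomes, with *G6pc* and *Gcgr* on the same one.

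The promoters of *Pck1* and *G6pc* are shown because these were the genes with the largest positive and the largest negative genotype effect among the 8. Both are RefSeq sequence of GRCm38.p6 on the plus strand, 5′ to 3′, at chr2:173152823-173153052 and chr11:101367466-101367565. The capitals mark a match to the C/EBP consensus TTNNGNAA, where N is any base, and in *Pck1* also a match to the cAMP response element half-site TGACG, which reads CGTCA on this strand.
Pck1: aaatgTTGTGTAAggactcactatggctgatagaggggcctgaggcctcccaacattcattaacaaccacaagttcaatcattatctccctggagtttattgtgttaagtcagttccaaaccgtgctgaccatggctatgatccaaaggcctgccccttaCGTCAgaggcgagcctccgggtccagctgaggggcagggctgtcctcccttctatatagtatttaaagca
G6pc: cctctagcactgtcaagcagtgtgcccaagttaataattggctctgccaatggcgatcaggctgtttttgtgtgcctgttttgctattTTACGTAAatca

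The C/EBP letters stood at 245 to 238 bases before the RefSeq start of *Pck1* and 162 to 155 bases before that of *G6pc*. In the 250 bases upstream of the RefSeq starts, on either strand, 6 of the 8 genes held a C/EBP match, all but *Pcx* and *Gcgr*, against 36.8% of 32851 windows of the genome. The half-site was held by 3 of the 8, *Pck1*, *Slc37a4* and *Ppargc1a*, against 17.8% of windows. The letters GTAAACA, a FOXO consensus, were held by 0 of the 8 against 3.17% of windows. *Pcx* had 2 windows and *Slc37a4* 3, which gives them more chances of a match. The motifs were searched separately, so that matches of different motifs may overlap. A match is a description of letters, and binding was not measured in these livers.

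Library totals ran from 7996128 to 10257366 expected counts, with 0 identical pairs of libraries, and the values below are CPM, counts scaled to a common library total, after TMM adjustment (trimmed mean of M values, which lines up the bulk of genes between libraries) over the 30 libraries. The knockout held in all 3 experiments. *Cebpa* averaged 177 CPM in Cebpa fl/fl livers and 4.74 in knockout livers of HFCFD2W (2.68% remaining), 143.6 and 17.2 under HFCFD8W+T10D (11.9%), and 114.3 and 21.3 under HFCFD12W+T10W (18.6%). Hepatocyte markers were the dominant markers of each group, with summed means of 86483 to 186345 CPM over 11 genes. Livers are bulk tissue, so that fewer hepatocytes and less of an mRNA per hepatocyte cannot be told apart. Each replicate is labelled as a biological replicate.

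Per unit of transcript length, the 8 genes spanned about the range from an abundant metabolic enzyme to a barely expressed coactivator. In TPM, length-scaled transcript shares that the authors derived per library without TMM, *Fbp1* led the levels in Cebpa fl/fl livers of HFCFD2W with a mean of 884.9, followed by *Pck1* at 536.3, *G6pc* at 246, *Pcx* at 211.6, *Slc37a4* at 117.8 and *Gcgr* at 84.3. *Foxo1* at 6.22 TPM and *Ppargc1a* at 0.754 TPM came last in that group and in the 5 others. *Pck1* stood first in knockout livers of HFCFD2W (1489 TPM) and in both groups of HFCFD12W+T10W (1889 in Cebpa fl/fl, 1668 in knockout), and *Fbp1* stood first in the other 3 groups. *G6pc* moved most in this order, from the 3rd place in both groups of HFCFD2W to the 6th in knockout livers of HFCFD8W+T10D, where it averaged 62.6 TPM.

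The genotype effect on these genes differed by experiment. In HFCFD2W, *Pck1* and *Ppargc1a* passed the test (adjusted p under 0.05) as higher in the knockout and 0 of the 8 genes as lower, beside 8.6% of the 11068 genes tested that were higher and 8.09% that were lower. In HFCFD8W+T10D, *G6pc* was lower and 0 were higher, beside 6.85% of 11990 genes lower and 10.3% higher. In HFCFD12W+T10W, all 8 genes were lower and 0 higher, beside 23.8% of 12463 genes lower and 27.4% higher. That last count depended on the scaling, as given below. The median log2 fold change of the 8 genes was 0.09, -0.10 and -0.57 in the 3 experiments, beside a median of 0.01 over all genes tested in each.

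With a fold change over 2 asked for as well, *Pck1* was higher in HFCFD2W (1.69% of all genes were), *G6pc* was lower in HFCFD8W+T10D (2.01%), and *G6pc* and *Slc37a4* were lower in HFCFD12W+T10W (3.47%). The 5 knockout livers lay apart from the 5 control livers for *Pck1* and *Ppargc1a* in HFCFD2W, both higher, where 6.34% of all genes were higher without overlap. They lay apart for 0 of the 8 genes in HFCFD8W+T10D, where 5.5% of all genes were lower without overlap. In HFCFD12W+T10W they lay apart and lower for 7 of the 8 genes, all but *Ppargc1a*, beside 19.5% of all genes. That count holds for TMM-scaled CPM. In the deposited TPM, which use no TMM factor, the ranges of *Pck1*, *Fbp1* and *Pcx* overlapped in that experiment too. The TPM of *Ppargc1a* overlapped in HFCFD2W, at 0.44 to 1.42 in Cebpa fl/fl and 0.8 to 1.42 in knockout livers.

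**Figure D1:**
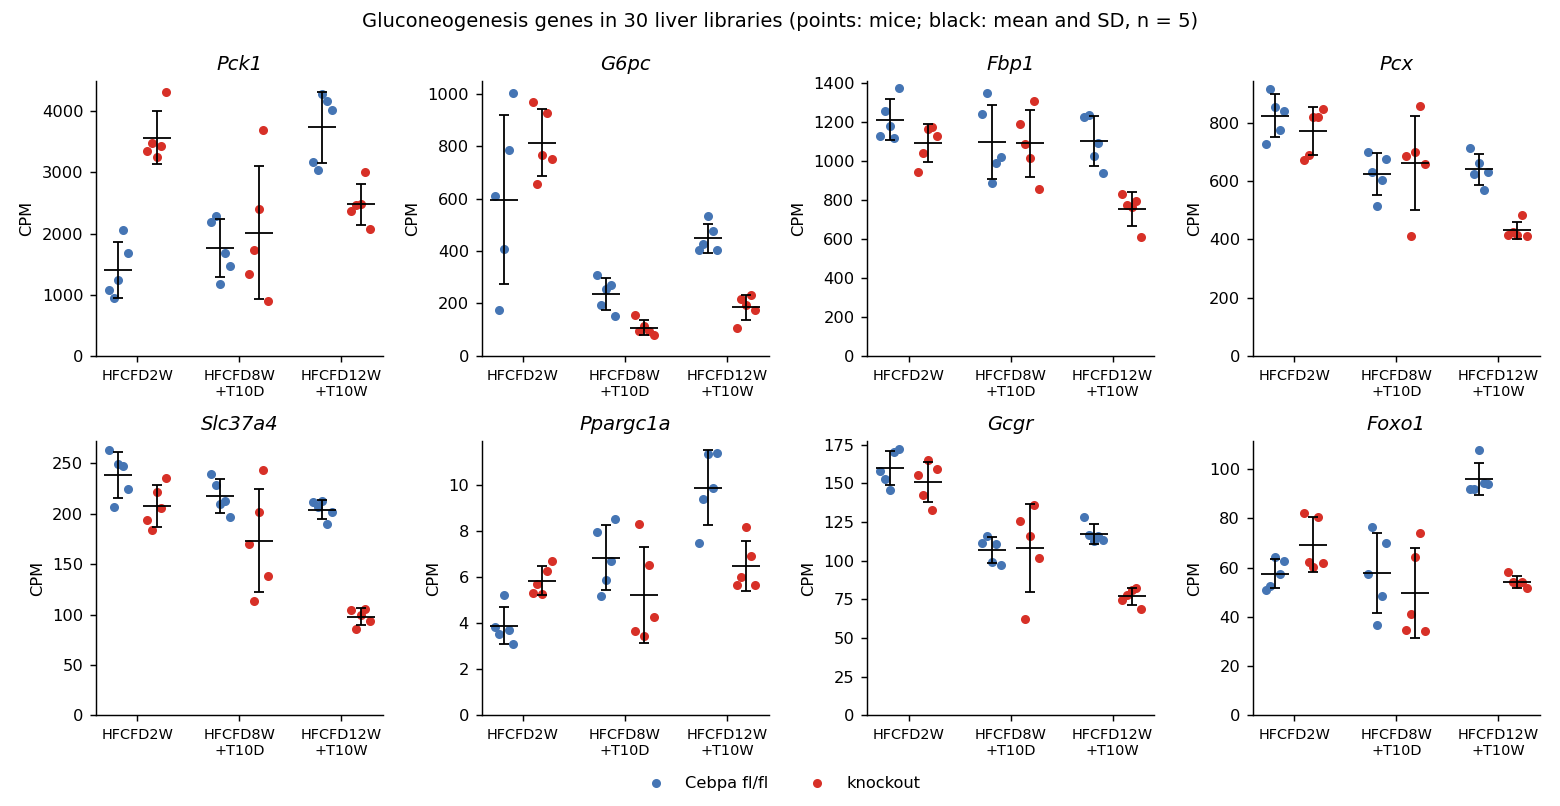
CPM of the 8 gluconeogenesis genes (vertical axes, each from 0) in every liver, by experiment (horizontal axis), with Cebpa fl/fl livers in blue, knockout livers in red, and black marks for the mean and SD of 5 livers. The knockout livers of HFCFD2W stand above the control livers for *Pck1*, the knockout livers of HFCFD8W+T10D spread widely in most panels, and those of HFCFD12W+T10W lie below their controls in every panel but that of *Ppargc1a*, where the groups overlap.

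*Pck1*, whose product makes phosphoenolpyruvate, rose in one experiment and fell in another. In HFCFD2W the Cebpa fl/fl livers held 1078, 946, 1247, 2063 and 1680 CPM (mean 1403 ± 461, SD, n = 5). The Cebpa ΔHep livers held 3351, 3478, 3246, 3429 and 4323 CPM (3566 ± 432, n = 5). The lowest knockout liver was above the highest control liver, and the difference was 2.55-fold (log2 fold change 1.35, SE 0.19, adjusted p = 0.00039). In HFCFD8W+T10D the Cebpa fl/fl livers held 2190.3, 2295, 1182, 1679 and 1478 CPM (1765 ± 472, n = 5) and the knockout livers 1346, 1733, 2409, 3693 and 893 CPM (2015 ± 1091, n = 5). Both the highest and the lowest of these 10 livers were knockout livers, and the log2 fold change of 0.20 had a 95% interval of -0.43 to 0.84 (adjusted p = 0.72). Without one or another of the 10 livers it ran from -0.14 to 0.38.

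In HFCFD12W+T10W the Cebpa fl/fl livers held 3171, 3039, 4286, 4173 and 4013 CPM of *Pck1* (3736 ± 586, n = 5). The Cebpa ΔHep,ERT2 livers held 2366, 2473, 2480.1, 3008 and 2079 CPM (2481 ± 336, n = 5). The highest knockout liver lay just below the lowest control liver, and *Pck1* was 1.46-fold lower (log2 fold change -0.55, SE 0.13, adjusted p = 0.0034). In a joint fit of all 30 libraries this adjusted p was 0.053. Ordered by mean CPM, the level in Cebpa fl/fl livers of HFCFD12W+T10W came first and that in Cebpa fl/fl livers of HFCFD2W last. In that order the knockout livers of HFCFD2W lay above the next group, the knockout livers of HFCFD12W+T10W, without overlap, and every other pair of neighbours overlapped. In the deposited TPM, which use no TMM factor, these knockout groups changed places and overlapped. The knockout livers of HFCFD12W+T10W averaged 1668 TPM (1450 to 2000) and those of HFCFD2W 1489 TPM (1287 to 1747).

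*G6pc*, the enzyme that releases free glucose, was lower in both inducible experiments. In HFCFD8W+T10D the Cebpa fl/fl livers held 307, 194, 257, 269 and 153 CPM (236 ± 61.5, n = 5) and the knockout livers 154, 96.1, 115.9, 95.2 and 80.4 CPM (108 ± 28.7, n = 5). The highest knockout liver just exceeded the lowest control liver, and the level was 2.16-fold lower (log2 fold change -1.11, SE 0.21, adjusted p = 0.0037). In HFCFD12W+T10W the Cebpa fl/fl livers held 406, 426, 535, 476 and 403 CPM (449 ± 56.1, n = 5) and the knockout livers 108, 218, 192.5, 231 and 174 CPM (185 ± 48.5, n = 5). Every knockout liver lay well below every control liver, 2.36-fold on average (log2 fold change -1.24, SE 0.17, adjusted p = 7.7e-05), the largest effect among the 8 genes in that experiment.

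In HFCFD2W *G6pc* did not pass the test. The Cebpa fl/fl livers ranged widely, at 610.5, 177, 407, 784 and 1003 CPM (596 ± 321, n = 5), and the Cebpa ΔHep livers held 968, 657, 768, 928 and 750.3 CPM (814 ± 130, n = 5). The knockout range lay inside the control range, and the log2 fold change was 0.45 with a 95% interval of -0.20 to 1.10 (adjusted p = 0.38). The control livers of this experiment had the largest relative spread of *G6pc* of any group (SD 53.8% of the mean).

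*Fbp1*, the enzyme of the fructose-1,6-bisphosphate step, had the most even level of the enzymes over 5 of the 6 groups, with means from 1089.6 to 1210.4 CPM. In HFCFD2W the log2 fold change was -0.15 (SE 0.09, adjusted p = 0.27), and in HFCFD8W+T10D it was 0.01 with a 95% interval of -0.30 to 0.32 (adjusted p = 0.98). In HFCFD12W+T10W the Cebpa fl/fl livers held 1226, 1236, 1024, 1091 and 937 CPM (1103 ± 129, n = 5) and the knockout livers 830.1, 772, 763, 792 and 608 CPM (753 ± 85.1, n = 5). In CPM the knockout livers lay below all controls of their experiment, and below every liver of the other 5 groups. In the deposited TPM, which use no TMM factor, their mean of 952.6 did not come last. It was above the means of HFCFD2W (884.9 in Cebpa fl/fl, 859.4 in knockout) and of Cebpa fl/fl livers of HFCFD8W+T10D (933.7). By the TMM-scaled test the level was 1.42-fold lower than in the controls of HFCFD12W+T10W (log2 fold change -0.51, SE 0.11, adjusted p = 0.0016).

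*Pcx*, the mitochondrial entry enzyme, behaved in a like manner. Its log2 fold change was -0.09 (SE 0.09, adjusted p = 0.53) in HFCFD2W and 0.10 (SE 0.17, adjusted p = 0.75) in HFCFD8W+T10D. In HFCFD12W+T10W the Cebpa fl/fl livers held 714, 624, 663, 569 and 630.2 CPM (640.1 ± 53.5, n = 5) and the knockout livers 415, 426, 416, 484 and 413 CPM (431 ± 30.2, n = 5). The groups did not overlap in CPM, 4 of the knockout livers lay within a narrow span and replicate 4 stood above them. The level was 1.44-fold lower (log2 fold change -0.53, SE 0.08, adjusted p = 0.00016).

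*Slc37a4*, the transporter that feeds glucose-6-phosphatase, had the second-largest log2 fold change of the 8 genes in HFCFD12W+T10W, after *G6pc*. In HFCFD12W+T10W the Cebpa fl/fl livers held 211, 206, 212, 189 and 201 CPM (204 ± 9.38, n = 5) and the knockout livers 105, 85.5, 99.9, 106 and 94.1 CPM (98 ± 8.37, n = 5). Both groups were tight and far apart, at a 2.02-fold lower level (log2 fold change -1.01, SE 0.07, adjusted p = 5e-07). In HFCFD8W+T10D the knockout livers held 170, 114, 201, 243 and 138 CPM (173 ± 51.1, n = 5) against 197 to 239.7 in the control livers (217.5 ± 16.8, n = 5). Replicate 4 of the knockout livers was the highest of the 10 and 3 others lay below all controls, and the log2 fold change was -0.32 (SE 0.17, adjusted p = 0.24). Without that replicate *Slc37a4* passed as lower, with an adjusted p of 0.044. In HFCFD2W the log2 fold change was -0.20 (SE 0.09, adjusted p = 0.15).

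*Ppargc1a*, the coactivator of the pathway, followed *Pck1* in direction in HFCFD2W and HFCFD12W+T10W at a far lower level. In HFCFD2W the Cebpa fl/fl livers held 3.85, 3.56, 5.24, 3.72 and 3.12 CPM (3.9 ± 0.804, n = 5) and the Cebpa ΔHep livers 5.32, 5.72, 5.27, 6.26 and 6.71 CPM (5.85 ± 0.621, n = 5). In CPM the ranges were separate by a narrow margin, and in the deposited TPM they overlapped. The difference was 1.49-fold (log2 fold change 0.57, SE 0.16, adjusted p = 0.03). This call was marginal: it was lost in 7 of the 10 fits that left out one liver (Cebpa fl/fl replicates 1, 2, 4 and 5 and Cebpa ΔHep replicates 3, 5 and 6), with an adjusted p of up to 0.072. Over the 10 fits the log2 fold change ran from 0.50 to 0.72. The call was lost in the joint fit of 30 libraries too (adjusted p = 0.075).

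In HFCFD8W+T10D the Cebpa fl/fl livers held 7.99, 5.17, 5.9, 6.7 and 8.55 CPM of *Ppargc1a* and the knockout livers 3.65, 8.3, 3.46, 6.52 and 4.27 CPM. The ranges overlapped, and the log2 fold change of -0.37 did not pass (SE 0.25, adjusted p = 0.35). In HFCFD12W+T10W the Cebpa fl/fl livers held 7.48, 9.39, 11.4, 9.86 and 11.4 CPM (9.9 ± 1.62, n = 5) and the knockout livers 5.66, 6, 8.19, 6.93 and 5.65 CPM (6.49 ± 1.08, n = 5). One knockout liver reached above the lowest control liver, and the level was 1.48-fold lower (log2 fold change -0.57, SE 0.15, adjusted p = 0.0064).

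*Gcgr*, the glucagon receptor, passed in HFCFD12W+T10W, where the Cebpa fl/fl livers held 129, 117, 113, 116 and 113 CPM (117.5 ± 6.39, n = 5) and the knockout livers 74.6, 77.9, 81, 82.7 and 68.7 CPM (77 ± 5.58, n = 5). In CPM no knockout liver came near the controls, and the level was 1.48-fold lower (log2 fold change -0.57, SE 0.07, adjusted p = 2.4e-05). In the deposited TPM the highest knockout liver, at 74.84, lay just below the lowest control liver, at 75.36. In HFCFD2W (log2 fold change -0.08, SE 0.08, adjusted p = 0.49) and in HFCFD8W+T10D (0.03, SE 0.17, adjusted p = 0.92) it did not pass. In the latter the knockout livers ranged from 62.5 to 135.8 CPM around controls at 97.4 to 116.1 CPM.

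*Foxo1*, the insulin-restrained factor, held 92.1, 92, 107.8, 94.5 and 93.8 CPM in Cebpa fl/fl livers of HFCFD12W+T10W (96 ± 6.64, n = 5), above every other group in the series. The knockout livers of that experiment held 58.3, 54.3, 53.4, 54.1 and 51.7 CPM (54.4 ± 2.42, n = 5). The difference was 1.71-fold (log2 fold change -0.78, SE 0.07, adjusted p = 1.7e-06). In TMM-scaled CPM the mean of these knockout livers was near that of the Cebpa fl/fl livers of HFCFD2W (57.6 ± 5.93) and HFCFD8W+T10D (57.8 ± 16.1). In the deposited TPM, which use no TMM factor, it was not. These knockout livers held 9.72 to 10.75 TPM, above all Cebpa fl/fl livers of HFCFD2W (5.38 to 7.84) and HFCFD8W+T10D (5.01 to 9.61). *Foxo1* did not pass in HFCFD2W, where the knockout livers averaged 69.4 CPM (log2 fold change 0.27, SE 0.11, adjusted p = 0.11), or in HFCFD8W+T10D (-0.21, SE 0.24, adjusted p = 0.62).

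**Figure D2:**
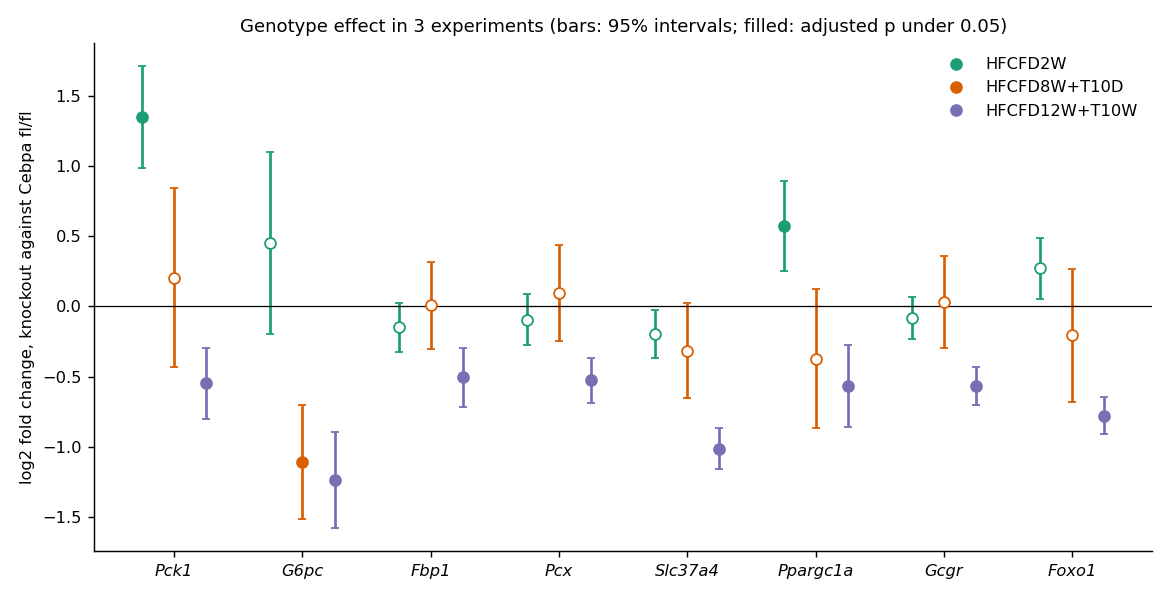
Log2 fold change of each of the 8 genes in knockout against Cebpa fl/fl livers (vertical axis), for HFCFD2W (green), HFCFD8W+T10D (orange) and HFCFD12W+T10W (purple), with bars of 95% intervals and filled points where the adjusted p was under 0.05. *Pck1* runs from 1.35 to -0.55 over the experiments, and the 8 purple points lie between -1.24 and -0.51.

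How many of the 8 genes passed in HFCFD12W+T10W depended on how the libraries were put on one scale. The TMM factors were 1.29 to 1.38 in the knockout livers of that experiment and 0.961 to 1.03 in its control livers, so TMM lowers all values of the knockout livers relative to those of the controls. With library totals alone, the median log2 fold change of all genes tested shifted to 0.384. All 8 genes still lay below 0 then, with a median of -0.20, and 4 of the 8 passed as lower, beside 7.72% of all genes: *G6pc* (-0.86, adjusted p = 0.0007), *Slc37a4* (-0.65), *Foxo1* (-0.41, adjusted p = 0.0001) and *Gcgr* (-0.20, adjusted p = 0.019). The other 4 did not pass, *Pck1* at -0.18 (adjusted p = 0.19), *Fbp1* at -0.14 (adjusted p = 0.24), *Pcx* at -0.16 (adjusted p = 0.099) and *Ppargc1a* at -0.20 (adjusted p = 0.25). The deposited TPM, which use no TMM factor, gave knockout levels of 54.9% of the control level for *G6pc*, 63.7% for *Slc37a4*, 75.3% for *Foxo1* and 83.6% to 90.7% for the other 5. In HFCFD2W and HFCFD8W+T10D the same genes passed with library totals as with TMM, where the median of all genes was 0.0287 and 0.195.

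**Figure D3:**
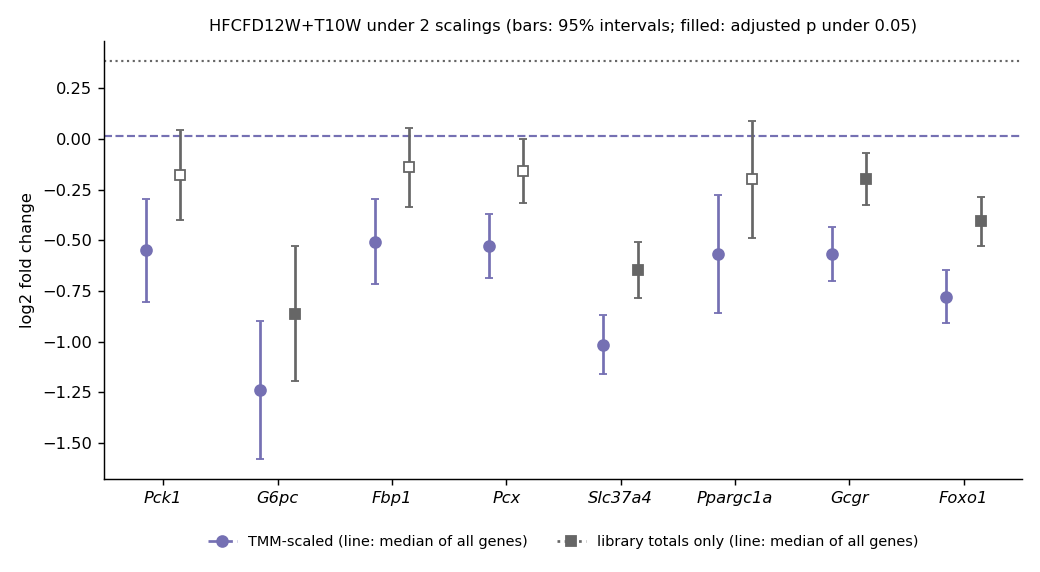
Log2 fold changes of the 8 genes in HFCFD12W+T10W (vertical axis) with TMM-scaled libraries (circles) and with library totals alone (squares), with bars of 95% intervals, filled where the adjusted p was under 0.05, and a line at the median of all genes under each scaling (0.01 and 0.384). Every point is below 0, and with library totals alone 4 of the 8 squares are filled.

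Markers of other cells moved with the genotype in the same experiment. The summed hepatocyte markers were 131182 to 160437 CPM in control livers and 79042 to 89921 CPM in knockout livers. Of the 11, 5 passed as lower, among them *Alb*, for albumin, at a log2 fold change of -1.10. The 11 markers did not move evenly, with log2 fold changes from -1.96 to 0.24 and a median of -0.38. The summed cholangiocyte markers averaged 5.23 and 64.9 CPM, with 7 of 7 tested higher, and the stellate cell and myofibroblast markers 365 and 1326 CPM, with 9 of 9 higher. The macrophage and leukocyte markers averaged 399 and 563 CPM, with 4 of 7 higher and 1 lower, and the endothelial markers 202 and 170 CPM, with 2 of 6 lower. With library totals alone 5 hepatocyte markers were lower and 4 higher, *Trf* (0.62) and *Ttr* (0.50) among the latter, and their median was -0.02. Under that scaling 1 endothelial marker was higher and 0 lower. The part of this shift in the lower values of the 8 genes was not tested. In HFCFD2W the hepatocyte sum was 171487 and 186345 CPM and the cholangiocyte sum 5.04 and 6.74 CPM, and in HFCFD8W+T10D the hepatocyte sum was 164367 and 116418 CPM. Beside the lower *G6pc* of HFCFD8W+T10D, 3 of 11 hepatocyte markers were lower and 0 higher, and with library totals alone 3 were lower and 2 higher, *Ttr* (0.68) and *Trf* (0.86). The cholangiocyte sum there was 8.63 and 15.6 CPM with 3 of 5 higher, the stellate cell sum 508 and 781 CPM with 2 of 9 higher, the macrophage and leukocyte sum 616 and 966 CPM with 4 of 8 higher, and the endothelial sum 222 and 183 CPM with 1 of 6 lower. Their part in the values of that experiment was not tested.

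The knockout livers of HFCFD8W+T10D had the largest relative spread of the 6 groups for 6 of the 8 genes, all but *G6pc* and *Fbp1*, with an SD of 54.1% of the mean for *Pck1*. Replicate 4 held the highest level among the 5 knockout livers for 6 of the 8 genes and had the lowest TMM factor of the group, 0.903. Replicate 5 held the lowest level for 4 genes (factor 1.202), replicate 2 for 3 (factor 1.27) and replicate 3 for 1. Summed hepatocyte markers were 107406, 93885, 122456, 159464 and 98880 CPM in replicates 1 to 5. The highest sum was thus in the liver with the highest levels of most of the 8 genes, and the part of this in their spread was not tested.

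Whether the genotype effects themselves differed between experiments was tested as interactions in the joint fit, in which HFCFD8W+T10D enters the first 2 comparisons and no comparison is independent of the others. HFCFD8W+T10D minus HFCFD2W gave lower effects for *G6pc* (difference of log2 fold changes -1.57, adjusted p = 0.0094), *Pck1* (-1.15, adjusted p = 0.035) and *Ppargc1a* (-0.96, adjusted p = 0.03), 3 of the 8, beside 6.79% of 12964 genes. The latter 2 calls were marginal. Without single livers the differences ran from -1.49 to -0.98 for *Pck1* and from -1.20 to -0.85 for *Ppargc1a*. *Pck1* failed in 8 of 20 fits that left out one, with an adjusted p of up to 0.071, for knockout replicates 1 and 2 and Cebpa fl/fl replicates 1 and 2 of HFCFD8W+T10D and for Cebpa fl/fl replicates 1, 2 and 3 and knockout replicate 6 of HFCFD2W. *Ppargc1a* failed in 7 of 20, with an adjusted p of up to 0.063, for knockout replicates 1 and 3 and Cebpa fl/fl replicates 1 and 5 of HFCFD8W+T10D and for Cebpa fl/fl replicates 2 and 5 and knockout replicate 6 of HFCFD2W. Of the 3, *Ppargc1a* did not pass with library totals alone (-0.78, adjusted p = 0.11). *Foxo1*, at -0.49 (adjusted p = 0.21), passed without knockout replicate 4 of HFCFD8W+T10D (adjusted p = 0.049).

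HFCFD12W+T10W minus HFCFD8W+T10D gave lower effects for *Slc37a4* (-0.73, adjusted p = 0.011), *Pcx* (-0.66, adjusted p = 0.019), *Gcgr* (-0.63, adjusted p = 0.018) and *Fbp1* (-0.54, adjusted p = 0.038), beside 5.49% of all genes. With library totals alone *Slc37a4* was the 1 gene of the 8 that still passed (-0.48, adjusted p = 0.024). *Fbp1* failed in 14 of 20 fits that left out one liver (adjusted p of up to 0.11), passing only without knockout replicate 2 or 5 or Cebpa fl/fl replicate 1 or 2 of HFCFD8W+T10D, or knockout replicate 1 or Cebpa fl/fl replicate 5 of HFCFD12W+T10W. *Pcx* failed without Cebpa fl/fl replicate 3 of HFCFD8W+T10D (adjusted p = 0.053), and *Gcgr* without Cebpa fl/fl replicate 5 of that experiment (adjusted p = 0.052). *G6pc*, lower in both experiments, had a difference of -0.16 with a 95% interval of -0.93 to 0.61 (adjusted p = 0.86). The interval leaves room for a difference in either direction.

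HFCFD12W+T10W minus HFCFD2W gave lower effects for 7 of the 8 genes, beside 17.3% of all genes. They were *Pck1* (-1.94, adjusted p = 0.00021), *G6pc* (-1.73, adjusted p = 0.0014), *Ppargc1a* (-1.18, adjusted p = 0.0023), *Foxo1* (-1.09, adjusted p = 0.0014), *Slc37a4* (-0.86, adjusted p = 0.00068), *Gcgr* (-0.53, adjusted p = 0.02) and *Pcx* (-0.47, adjusted p = 0.044). *Fbp1* at -0.40 did not pass (adjusted p = 0.076). With library totals alone 4 passed, *Pck1* (-1.55), *G6pc* (-1.35), *Foxo1* (-0.70) and *Slc37a4* (-0.47), all at an adjusted p under 0.05. *Pcx* failed in 14 of 20 fits that left out one liver (adjusted p of up to 0.087), passing only without knockout replicate 4 or Cebpa fl/fl replicate 4 of HFCFD12W+T10W, or knockout replicate 2 or 3 or Cebpa fl/fl replicate 2 or 3 of HFCFD2W.

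The control livers themselves differed between experiments. Against HFCFD2W, Cebpa fl/fl livers of HFCFD8W+T10D held less *G6pc* (log2 fold change -1.34, adjusted p = 0.00035), *Gcgr* (-0.58, adjusted p = 0.00032) and *Pcx* (-0.40, adjusted p = 0.012) and more *Ppargc1a* (0.81, adjusted p = 0.0026). These were 4 of the 8 genes, beside 43.6% of all genes changed in either direction. *Pcx* failed without Cebpa fl/fl replicate 3 of HFCFD8W+T10D (adjusted p = 0.054) and with library totals alone (-0.21, adjusted p = 0.11).

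Cebpa fl/fl livers of HFCFD12W+T10W held more *Pck1* (1.08, adjusted p = 0.0054), *G6pc* (0.93, adjusted p = 0.028) and *Foxo1* (0.73, adjusted p = 0.0056) than those of HFCFD8W+T10D, beside 11.4% of genes changed. *G6pc* failed there in 4 of 10 fits that left out one liver (Cebpa fl/fl replicates 2, 3 and 5 of HFCFD8W+T10D and replicate 3 of HFCFD12W+T10W), with an adjusted p of up to 0.082. Against HFCFD2W they held more *Pck1* (1.41, adjusted p = 0.0001), *Ppargc1a* (1.33, adjusted p = 1.2e-05) and *Foxo1* (0.74, adjusted p = 0.0015) and less *Gcgr* (-0.44, adjusted p = 0.0047) and *Pcx* (-0.36, adjusted p = 0.023), beside 39.1% of genes. *Pcx* failed there in 4 of 10 such fits (Cebpa fl/fl replicates 2, 4 and 5 of HFCFD12W+T10W and replicate 2 of HFCFD2W), with an adjusted p of up to 0.076, and *G6pc* passed as lower without Cebpa fl/fl replicate 2 of HFCFD2W (adjusted p = 0.029). Neither *Gcgr* (-0.21, adjusted p = 0.076) nor *Pcx* (-0.13, adjusted p = 0.33) passed against HFCFD2W with library totals alone. The knockout livers of HFCFD12W+T10W were thus set against control livers with more *Pck1* and *Foxo1* than the controls of either other experiment.

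Across the 30 libraries, which share 6 groups and one scaling, Pearson's r of log2 CPM over the 28 pairs of the 8 genes ran from -0.41 to 0.91 with a median of 0.37. *Pcx* and *Gcgr* were most alike (0.91), and *Pck1* and *Foxo1* had an r of 0.73. With group means removed, r ran from -0.48 to 0.75 (median 0.32), and without the knockout livers of HFCFD8W+T10D from -0.32 to 0.56 (median 0.23).

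Among 7046 other genes with a mean of at least 10 CPM, the ones most like *Pck1* over the 30 libraries were *Tat* (r = 0.89), *Tsc22d3* (0.87) and *Rusc2* (0.86). *G6pc* was like *Ppp1r10* (0.90) and *Nox4* (0.87). *Slc37a4* was most like *Adh5*, *Pxmp2* and *Slc10a1* (each 0.95), *Gcgr* most like *Cyp2d10* (0.95), *Tfr2* and *Cyp2d22* (each 0.94), and *Pcx* most like *Cyp2d26*, *Selenbp1* (each 0.94) and *Slc27a5* (0.92). *Foxo1* was most like *Slc25a51* (0.87), *Herpud1* and *Klf15* (each 0.85), *Fbp1* most like *Sdhc* (0.88), *Tmem135* and *Isoc1* (each 0.86), and *Ppargc1a* most like *Kansl1*, *Plce1* (each 0.85) and *Tbc1d8* (0.83). These r describe the order of livers over groups that differ in level, and carry no test.

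Genes that supply substrate to the route passed mostly as lower. Of 17 tested, 4 were lower and 1 higher in HFCFD2W, 4 lower and 0 higher in HFCFD8W+T10D, and 11 lower and 1 higher in HFCFD12W+T10W. Library totals alone gave 2 lower and 2 higher in HFCFD8W+T10D and 8 lower and 4 higher in HFCFD12W+T10W. Under that scaling the median log2 fold change of all genes was itself 0.195 and 0.384 in these experiments. The share of all genes higher under it is not given here. *Got1*, the cytosolic aspartate aminotransferase, was lower in all 3, under either scaling (log2 fold change -1.31, -1.33 and -1.04). So were *Mpc1* (-0.57, -0.41 and -0.58) and *Mpc2* (-0.46, -0.46 and -0.88), the subunits of the mitochondrial pyruvate carrier. With library totals alone neither passed in HFCFD8W+T10D (adjusted p = 0.082 and 0.054), and *Mpc1* did not pass in HFCFD12W+T10W (adjusted p = 0.097). *Sds*, serine dehydratase, was lower in HFCFD12W+T10W (-1.15, adjusted p = 3.3e-05), and *Ldhb*, a lactate dehydrogenase subunit, was higher there (0.98, adjusted p = 0.0067).

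Genes of glycolysis and pyruvate use, enzymes and regulators together, moved as well. Of 8 tested, 2 were higher in HFCFD2W, *Pfkfb3*, which makes the phosphofructokinase activator fructose-2,6-bisphosphate, at 2.14 (adjusted p = 0.00045) and *Pfkfb1*, its liver isozyme, at 0.58 (adjusted p = 0.021). *Pfkfb1* was lower in HFCFD8W+T10D (-0.56, adjusted p = 0.017), the 1 gene of this list that passed there, but not with library totals alone (adjusted p = 0.11), where another gene of the list was higher (0.49, adjusted p = 0.0048). In HFCFD12W+T10W 6 of 8 were lower, among them *Pdha1*, a subunit of pyruvate dehydrogenase (-0.43, adjusted p = 0.00021). With library totals alone 1 was lower and 1 higher, and *Pdha1* did not pass (-0.06, adjusted p = 0.43). Of 7 genes for steps shared with glycolysis, 0 passed in HFCFD2W, *Gpi1*, glucose-6-phosphate isomerase, was higher in HFCFD8W+T10D (0.63, adjusted p = 0.002), where library totals alone gave 5 higher, and 3 were lower in HFCFD12W+T10W, where library totals alone gave 2 higher and 0 lower.

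Of 5 paralogs tested in HFCFD12W+T10W, 2 were higher and 1 lower. *Pck2*, the mitochondrial form of the *Pck1* enzyme, was higher in knockout livers, at 5.01 ± 0.56 against 1.52 ± 0.306 CPM (SD, n = 5, log2 fold change 1.75, adjusted p = 5.4e-06). *G6pc3*, the ubiquitous form of the phosphatase subunit, was higher as well, at 5.19 ± 1.03 against 2.86 ± 0.397 CPM (0.90, adjusted p = 0.00077). *Foxo4* was lower (-0.74, adjusted p = 0.00032), and with library totals alone 3 of the 5 were higher, *Foxo3* among them (0.26, adjusted p = 0.0033), and *Foxo4* was lower. In HFCFD2W 1 of 5 passed, *Foxo3*, at 0.51 (adjusted p = 0.013), and in HFCFD8W+T10D 0 of 5.

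Transcription factors known for gluconeogenic promoters split by experiment. In HFCFD2W 2 of 13 were higher, *Cebpb*, a C/EBP family member (1.11, adjusted p = 0.00039), and *Klf15* (0.52, adjusted p = 0.0011), and *Nr1h4*, the bile acid receptor FXR, was lower (-0.64, adjusted p = 0.0019). In HFCFD8W+T10D 6 of 14 were lower and 0 higher, among them *Hnf4a* (-0.56, adjusted p = 0.01), *Ppara* (-0.60, adjusted p = 0.0058) and *Nr1h4* (-0.44, adjusted p = 0.026), and with library totals alone *Ppara* was the 1 that passed (-0.41, adjusted p = 0.033). In HFCFD12W+T10W 11 of 14 were lower and 0 higher, among them *Hnf4a* (-0.96, adjusted p = 2.2e-06), *Klf15* (-0.64, adjusted p = 0.00032) and *Cebpb* (-0.44, adjusted p = 0.0075), and with library totals alone 6 were lower and 1 higher, *Cebpb* not among those that passed (adjusted p = 0.63).

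Genes of glucagon, insulin and cAMP signalling passed as 3 higher and 1 lower of 20 in HFCFD2W, 0 higher and 2 lower of 21 in HFCFD8W+T10D, and 2 higher and 10 lower of 21 in HFCFD12W+T10W. Library totals alone gave 1 higher and 1 lower, 2 higher and 1 lower, and 9 higher and 2 lower. *Pde4b*, a phosphodiesterase that breaks down cAMP, was lower in HFCFD2W, at 2.3 ± 0.907 against 10.9 ± 2.56 CPM (SD, n = 5, log2 fold change -2.25, adjusted p = 8.2e-05), and higher in HFCFD12W+T10W (0.53, adjusted p = 0.023). *Adcy9*, an adenylyl cyclase, was lower in HFCFD8W+T10D (-0.62, adjusted p = 0.03) and in HFCFD12W+T10W (-1.06, adjusted p = 0.00022). With library totals alone *Adcy9* did not pass in HFCFD8W+T10D (-0.44, adjusted p = 0.103).

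Among other known targets of FOXO1 or glucagon, *Igfbp1*, an insulin-repressed secreted protein, averaged 22.6 ± 18.7 CPM in Cebpa fl/fl and 235 ± 81 CPM in Cebpa ΔHep livers of HFCFD2W (SD, n = 5, log2 fold change 3.39, adjusted p = 0.00049). *Tat*, tyrosine aminotransferase, rose with *Pck1* in HFCFD2W (1.52, adjusted p = 0.00032) and fell in HFCFD12W+T10W (-0.93, adjusted p = 0.0016). *Tdo2*, tryptophan dioxygenase, was lower in all 3 experiments under either scaling (-0.57, -1.47 and -1.50). In all, 2 of 9 such genes were higher and 3 lower in HFCFD2W, 0 and 1 of 10 in HFCFD8W+T10D, and 2 and 4 of 10 in HFCFD12W+T10W, with 2 and 2, 0 and 1, and 3 and 3 under library totals alone.

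**Figure D4:**
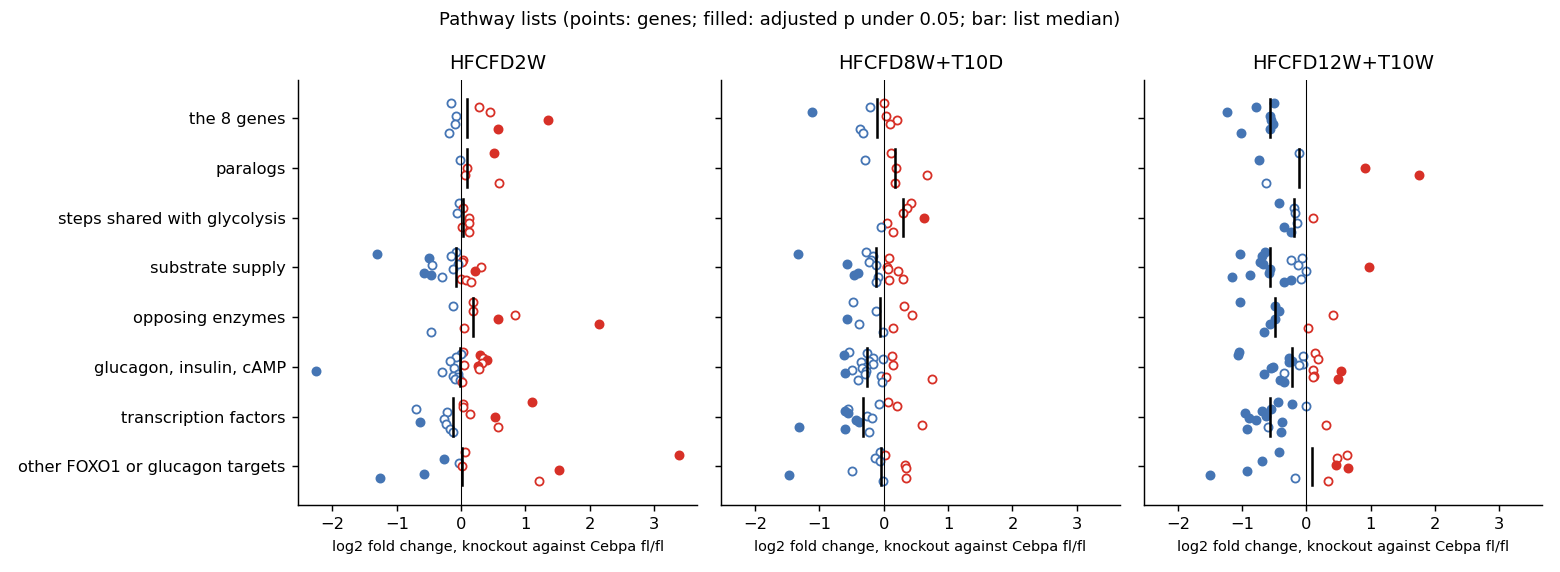
Log2 fold change in knockout against Cebpa fl/fl livers (horizontal axes) of each tested gene of the 8 and of 7 other lists of the pathway (vertical axis), in the 3 experiments, with red above 0, blue below 0, filled points at an adjusted p under 0.05 and a bar at each list's median. The medians of most lists lie near 0 in HFCFD2W and to the left of 0 in HFCFD12W+T10W, where the 8 genes have a median of -0.57 and where library totals alone (not drawn) put the medians of 4 of the 7 other lists above 0.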

How the data were processed

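Liver mRNA of 30 mice was sequenced as stranded poly(A) libraries (Illumina TruSeq Stranded mRNA). Per the submitters' processing notes, the tools were Trimmomatic 0.36, STAR 2.5.1, Picard 1.84, RSEM 1.2.22 and DESeq2, with the build mm10. The authors deposited unnormalized expected counts per gene from RSEM, of which 11.0% of the values above 0 were not whole, while all 240 values of the 8 genes were whole. They also deposited TPM and FPKM values per library, used here as they stand for levels between genes. Tables of TMM-normalized counts and of RPKM made by the authors were not used. All 55450 identifiers matched GENCODE M21.

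Expected counts were rounded and tested with edgeR 4.0.16 in R 4.3.3: filterByExpr by genotype, TMM, the quasi-likelihood F test within each experiment, and Benjamini-Hochberg adjustment over all genes tested, a gene passing at an adjusted p under 0.05. Differences between experiments were contrasts in a joint fit of all libraries. CPM used TMM factors over the 30 libraries, and log2 CPM a prior count of 2. Intervals of 95% are normal intervals from the standard errors. Steps were tested on simulated data.

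The 8 genes, the lists, the markers and the rules for naming genes were chosen with earlier results of these data known. Named were the 8 genes, *Cebpa*, listed genes that passed in at least 1 experiment, and for each of the 8 the 3 genes with the highest Pearson's r over all libraries among those with a mean of at least 10 CPM. Some genes these rules name are not reported here. The marker genes named as examples follow the same rule. Alternatives were DESeq2 1.42.0, upper quartile scaling, no filter, robust quasi-likelihood, a joint fit, the replicate number as a block, leaving out each library, a fold over 2, an adjusted p under 0.01 and, chosen after seeing the data, library totals alone and the block's libraries without the block. Promoters are RefSeq sequence of GRCm38.p6. Protein sequences were not used here.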

Additional observations from a re-analysis of the deposited data

Results flagged for a closer look

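In 48 groups of 5 livers, 8 genes by 6 groups, the gap of an extreme liver to its nearest neighbour was divided by the group's range. This ratio exceeded Dixon's 95% critical value of 0.71 in 4 groups, where chance gives about 1 in 20 groups. *Pck1* stood at 4323 CPM in Cebpa ΔHep replicate 6 of HFCFD2W, above the other 4. *Pcx* stood at 484 CPM in knockout replicate 4 of HFCFD12W+T10W, *Gcgr* at 129 CPM in Cebpa fl/fl replicate 1 of that experiment and *Foxo1* at 107.8 CPM in its Cebpa fl/fl replicate 3, each above the other 4.

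Genotype effects that differed between experiments by the interaction test of edgeR gave 14 values, on the log2 scale. For HFCFD8W+T10D minus HFCFD2W the difference was -1.57 for *G6pc*, -1.15 for *Pck1* and -0.96 for *Ppargc1a*. For HFCFD12W+T10W minus HFCFD8W+T10D it was -0.73 for *Slc37a4*, -0.66 for *Pcx*, -0.63 for *Gcgr* and -0.54 for *Fbp1*. For HFCFD12W+T10W minus HFCFD2W it was -1.94 for *Pck1*, -1.73 for *G6pc*, -1.18 for *Ppargc1a*, -1.09 for *Foxo1*, -0.86 for *Slc37a4*, -0.53 for *Gcgr* and -0.47 for *Pcx*. The diet time, the tamoxifen and the experiment cannot be told apart in any of them, nor can the Cre line in those that include HFCFD2W.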

How the results depend on the processing

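Of the 8 genes, those that passed in HFCFD2W numbered 2 and fell to 1, *Pck1*, in the joint fit, without the low-count filter, with a fold over 2 and at an adjusted p under 0.01. In HFCFD12W+T10W 8 passed, 4 with library totals alone and 2 with a fold over 2. Of the differences of genotype effects, HFCFD8W+T10D minus HFCFD2W gave 3 genes, 2 under library totals alone and 1 at an adjusted p under 0.01. HFCFD12W+T10W minus HFCFD8W+T10D gave 4, with 1 under library totals alone, 0 with a fold over 2 and 0 at an adjusted p under 0.01. HFCFD12W+T10W minus HFCFD2W gave 7, with 4 under library totals alone and 4 with a fold over 2. Between control groups, the counts of 4, 3 and 5 became 1, 1 and 2 with a fold over 2, and 3, 3 and 3 under library totals alone. Leaving out each library gave 1 to 2 genes for HFCFD2W, 1 to 2 for HFCFD8W+T10D and 8 to 8 for HFCFD12W+T10W. For the differences of effects, in the order above, it gave 1 to 4, 2 to 4 and 6 to 7, and between control groups 3 to 4, 2 to 3 and 4 to 5.

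Some signs turned. *Fbp1* in HFCFD8W+T10D was -0.0074 in the joint fit, -0.010 without the filter and -0.0045 in DESeq2. With library totals alone the difference of effects became 0.0090 for *Slc37a4* (HFCFD8W+T10D minus HFCFD2W) and 0.068 for *G6pc* (HFCFD12W+T10W minus HFCFD8W+T10D). Against control livers of HFCFD2W, those of HFCFD8W+T10D became 0.039 for *Fbp1* and 0.057 for *Slc37a4*, and those of HFCFD12W+T10W 0.10 and 0.011. With upper quartile scaling, HFCFD12W+T10W against HFCFD8W+T10D control livers gave -0.027 for *Fbp1* and -0.00091 for *Pcx*. Library totals alone turned 24 genes of the other pathway lists in HFCFD12W+T10W and 17 in HFCFD8W+T10D. Of those that had passed, 9 turned, all from lower in HFCFD12W+T10W: *Stk11* (0.023), *Akt2* (0.099), *Slc25a11* (0.12), *Slc25a13* (0.013), *Crebbp* (0.14), *Tpi1* (0.12), *Crtc2* (0.096), *Creb3l3* (0.14) and *Pgk1* (0.028). Leaving out single libraries turned *Pck1* (-0.14 to 0.38), *Fbp1* (-0.072 to 0.082), *Pcx* (-0.018 to 0.22) and *Gcgr* (-0.066 to 0.17) in HFCFD8W+T10D. It also turned the difference of effects between the inducible experiments for *G6pc* (-0.27 to 0.0024) and *Ppargc1a* (-0.33 to 0.037), and between control groups *Foxo1* (-0.12 to 0.15, HFCFD8W+T10D against HFCFD2W), *Fbp1* (-0.060 to 0.094) and *Pcx* (-0.030 to 0.078, both HFCFD12W+T10W against HFCFD8W+T10D). The cause was not tested.

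Replicate numbers were not taken to pair the mice. Same-numbered livers correlated at -0.35 to 0.05, -0.08 to 0.17 and -0.04 to 0.26 in the 3 experiments. Differently numbered livers were not set beside them, so whether the numbers pair mice was not tested. With the replicate block, 1 gene passed for HFCFD2W (8 libraries), 1 for HFCFD8W+T10D and 8 for HFCFD12W+T10W. In HFCFD2W *Pck1* had a log2 fold change of 1.25 (adjusted p = 0.012) and *Ppargc1a* one of 0.53 (adjusted p = 0.17), and without the block the same 8 libraries gave 1 gene too. *Gcgr* in HFCFD8W+T10D became -0.0057 with the block.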
